A study of Mus musculus with 4 samples.

Results

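Septal neurons marked here by 2 genes, Htr7 and Vwa5b1, were taken from single-nucleus RNA sequencing of the mouse lateral septum (LS). A nucleus was included if it held 200 to 6000 genes, under 2% mitochondrial unique molecular identifiers (UMIs, each standing for 1 captured RNA molecule) and at least 2000 UMIs in all. It further needed at least 2 UMIs of Htr7, at least 1 of Vwa5b1 and at least 1 of Gad1 or Gad2, with under 2 of Slc17a6, none of Calcr or Esr1 and under 3 of St18. These limits selected 891 of the 48940 nuclei within the quality limits (1.82%). The nuclei came from 4 libraries, each made from the LS of 3 pooled male mice aged 6 to 8 weeks. C57BL/6JNifdc mice (C57J) gave C57J 1 and C57J 2, BALB/c nude mice gave the nude library, and BALB/c mice gave the BALB/c library. Nude mice lack functional Foxn1 and therefore T cells, and descend from the BALB/c background. C57J 1 belonged to sequencing batch 1 and the other libraries to batch 2. The spread between mice within a pool is not known, so each test measures the spread between libraries. Members numbered 243, 163, 222 and 263 (C57J 1, C57J 2, nude and BALB/c), with 2441137, 1319141, 1789110 and 3582442 UMIs in the same order. No member barcode was shared between libraries.

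Htr7 encodes the 5-HT7 serotonin receptor, which couples to the stimulatory G protein and raises cAMP. Vwa5b1 encodes a protein with a von Willebrand factor A domain. Nearly all neurons of the LS are GABAergic, and they relay hippocampal input to the hypothalamus and other regions that shape anxiety, fear, feeding and social behavior. LS neurons are divided by their receptors, neuropeptides and transcription factors, and serotonergic fibers from the raphe reach the septum. In the mm10 assembly (GENCODE vM21 on GRCm38), Htr7 (ENSMUSG00000024798) lies on the minus strand at chr19:35958734-36057507 and Vwa5b1 (ENSMUSG00000028753) on the minus strand at chr4:138565360-138635884.

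The values that chose the nuclei are given as a description. Htr7 in C57J 1, C57J 2, nude and BALB/c members stood at 317, 389.6, 359 and 269.6 CPM (UMIs scaled to a sum of 1000000 per class and library), and Vwa5b1 at 141, 174, 172 and 110.3 CPM. A median member held 3 Htr7 UMIs in C57J 1, C57J 2 and BALB/c and 2 in nude, and the median Vwa5b1 count was 1 in each library. Many members lay at the limits of the rule. Exactly 2 Htr7 UMIs were found in 401 members and exactly 1 Vwa5b1 UMI in 620, whereas 692 nuclei that met every other limit had 1 Htr7 UMI and 5313 had no Vwa5b1 UMI. The limits on Calcr, Esr1, St18 and Slc17a6 each kept out 78, 154, 80 and 41 further nuclei, and the Gad limit 18.

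Whether the 2 genes marked the same nuclei was examined after every nucleus had been thinned to 2000 UMIs, so that depth was equal. Among GABAergic nuclei without an Htr7 UMI, a Vwa5b1 UMI was found in 3.20%, 3.97%, 3.51% and 2.41% of nuclei (C57J 1, C57J 2, nude and BALB/c). With 2 or more Htr7 UMIs the share was 7.65% (15 of 196 nuclei), 6.56% (12 of 183), 10.5% (26 of 248) and 4.91% (8 of 163). The share was higher in each of the 4 libraries, yet most nuclei with Htr7 showed no Vwa5b1 UMI at this depth. In oligodendrocytes, which served as a class that should lack these genes, a Vwa5b1 UMI was found in 0.249% to 1.47% of nuclei and an Htr7 UMI in 2.12% to 5.80%, against 12.2% to 17.4% of GABAergic nuclei for Htr7. The rule therefore describes GABAergic nuclei enriched for both transcripts, and these values do not show a separate class.

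The septal label was set against marker genes. The LS gene Trpc4, a receptor-operated cation channel, stood at 678, 739.9, 734 and 653 CPM in members of the 4 libraries. The 5 LS markers (Trpc4, Dgkg, Zic1, Prdm12 and Homer2) summed to 1490.1 to 1666 CPM in members, 1245 to 1652 CPM in other GABAergic nuclei and 2027 to 2162 CPM in GABAergic nuclei chosen for Trpc4. The medial septal markers (Elavl2, Nkx2-1, Lhx6 and Lhx8) summed to 152 to 208 CPM in members, within the range of the other GABAergic nuclei (139 to 222 CPM). In Trpc4 nuclei they summed to 126 to 209 CPM. In the comparisons given below, Lhx8 was called higher against both classes, and Lhx6 against Trpc4 nuclei. Of the 4 LS markers tested against Trpc4 nuclei, 2 (Homer2 and Dgkg) were called lower and 2 were not called. The 6 striatal markers summed to 64.5 to 101 CPM in members against 154 to 434 CPM in other GABAergic nuclei, with Rarb at 27.6 to 46.3 CPM and 89.5 to 304 CPM, respectively. Members thus lay close to the other GABAergic nuclei in LS markers, below nuclei chosen for Trpc4, and were low in striatal transcripts. Trpc4 is part of the LS sum and also chose the Trpc4 nuclei, so their higher sum was in part fixed by selection. The cholinergic gene Chat was at 1.68 to 4.92 CPM in members.

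Members made up 2.04% (95% Clopper-Pearson interval 1.79 to 2.31) of the GABAergic nuclei of C57J 1, 1.78% (1.52 to 2.08) of C57J 2, 2.09% (1.83 to 2.38) of nude and 2.71% (2.40 to 3.05) of BALB/c. Both libraries of the BALB/c background lay above both C57J libraries, and the log2 ratio of their means was 0.33 (exact two-sided permutation test, p = 0.333, the smallest p that 2 libraries against 2 allow). The order held without predicted doublets and with all nuclei as denominator. Nude lay below C57J 1 among nuclei of at least 4000 UMIs (2.49% against 2.63%) and with at least 3 Htr7 UMIs (1.01% against 1.09%). Among GABAergic nuclei with at least 2 Trpc4 UMIs it was 2.46% against 3.09%. The intervals cover counting error only. In batch 2 alone, nude and BALB/c stood 0.23 and 0.60 above C57J 2 on the log2 scale. Depth moved with these shares, since the median GABAergic nucleus held 6789.5, 6003, 6021 and 10117.5 UMIs in the same order. When the rule was applied to nuclei thinned to 2000 UMIs, 14 of 8764, 11 of 6418, 25 of 7858 and 7 of 6663 GABAergic nuclei passed, or 0.160%, 0.171%, 0.318% and 0.105%. BALB/c then had the lowest share in place of the highest, as the plot of shares shows. With 2 libraries against 2, the test could not have passed a threshold of 0.05.

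**Figure D1:**
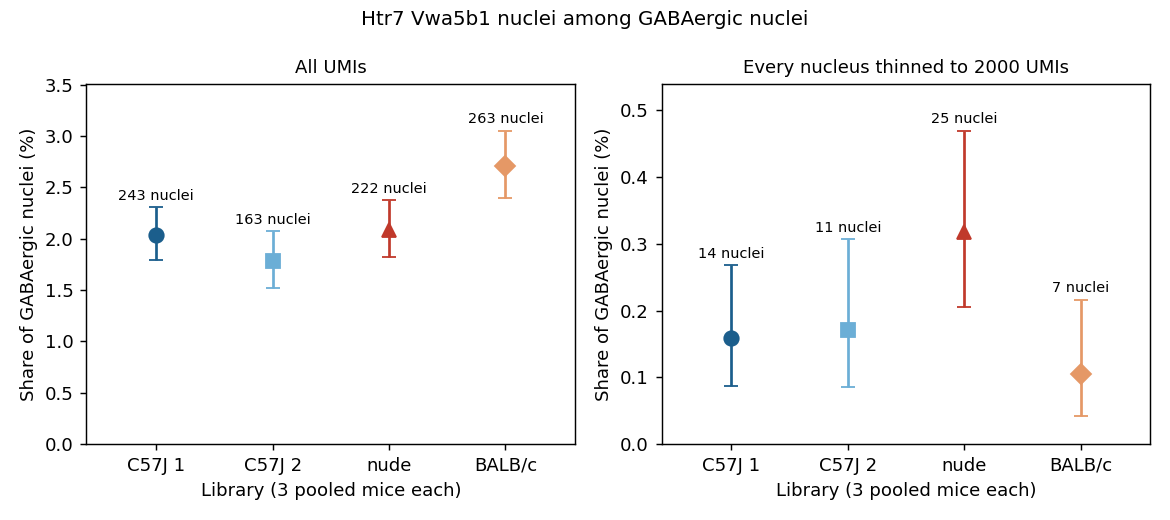
Share of GABAergic nuclei (y axis, %) that met the rule in each library (x axis), with all UMIs on the left and after thinning every nucleus to 2000 UMIs on the right. Points are libraries of 3 pooled mice, bars are 95% Clopper-Pearson intervals and labels give the number of nuclei; BALB/c is highest at 2.71% on the left and lowest at 0.105% on the right.

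To describe what else these nuclei expressed, UMIs were summed per library and compared with 2 classes of GABAergic nuclei that had no Htr7 and no Vwa5b1 UMI. The first held all 24219 such nuclei, and the second the 10997 of them with at least 2 Trpc4 UMIs, which are closer to LS neurons. The comparison was made within libraries (edgeR quasi-likelihood F test, library as block, n = 4), and calls required a log2 fold change beyond 0.5 in either direction with a p under 0.05 after Benjamini-Hochberg adjustment. Against other GABAergic nuclei, 12.2% of 16811 genes tested were called, 544 higher (3.24%) and 1512 lower (8.99%). Against Trpc4 nuclei, 6.63% of 15519 genes tested were called, 471 higher (3.03%) and 558 lower (3.6%). As nuclei were chosen by expression, these p-values describe how stable a difference was over the 4 libraries and are no independent evidence of a cell type. The 2 comparisons share the member libraries, so their values are given side by side.

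Glial transcripts moved with both comparisons. All 5 oligodendrocyte, 3 oligodendrocyte precursor and 5 astrocyte markers were called lower in members than in other GABAergic nuclei. Against Trpc4 nuclei, 3 of 5 oligodendrocyte markers (Mog, Mobp and Mag) were called lower. So were 1 of 3 precursor markers (Pdgfra) and 1 of 5 astrocyte markers (Aqp4). Nuclei with 0.2% or more of their UMIs in the 10 oligodendrocyte and astrocyte markers made up 23.3% to 46.6% of other GABAergic nuclei per library, 8.00% to 13.9% of Trpc4 nuclei and 0.901% to 7.41% of members. Summed oligodendrocyte markers reached 607 to 1841 CPM in other GABAergic nuclei, 372 to 575 CPM in Trpc4 nuclei and 261 to 479.9 CPM in members. The 8 genes with the largest falls against other GABAergic nuclei were A230001M10Rik, 4930420G21Rik, Prr5l, Gjc3, Fa2h, Daam2, Aspa and Atp13a4, with log2 fold changes of -3.77 to -3.10. They include genes known from oligodendrocytes, such as Fa2h (a fatty acid hydroxylase of myelin lipids) and Aspa (aspartoacylase). With nuclei poor in glial transcripts, the calls against other GABAergic nuclei fell to 938 (398 higher and 540 lower), and those against Trpc4 nuclei were 1043 (538 higher and 505 lower). In this setting, comparison nuclei also needed at least 3 UMIs of Gad1 and Gad2 together, while members did not. Both limits were chosen after the data were seen, and their effects were not separated. The limits on Calcr, Esr1 and St18 held for members alone. With the same limits on the comparison nuclei, also chosen afterwards, 1872 genes were called against other GABAergic and 1047 against Trpc4 nuclei.

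Depth and doublets also differed. The median member held 9027, 7548, 7160.5 and 12490 UMIs in C57J 1, C57J 2, nude and BALB/c, close to Trpc4 nuclei (8175, 6738, 6592.5 and 12540) and above other GABAergic nuclei (5451, 5183.5, 5171 and 6767). Predicted doublets made up 20.6%, 18.4%, 15.8% and 11.4% of members, against 13.4%, 14.9%, 14.5% and 10.3% of GABAergic nuclei. Without them, 2101 and 1083 genes were called against other GABAergic and Trpc4 nuclei. Only genes whose direction was the same in both comparisons, or whose exception is stated, are described below.

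Serotonin receptors beyond Htr7 were compared first. Of the 11 tested against other GABAergic nuclei, 2 rose, 1 fell and 8 did not pass the test, beside 3.24% higher and 8.99% lower of all genes. Htr2c, the Gq-coupled 5-HT2C receptor, was at 484, 629, 742 and 748 CPM in C57J 1, C57J 2, nude and BALB/c members, against 347, 361, 453 and 323 CPM in Trpc4 nuclei and 413, 409, 500.1 and 321 CPM in other GABAergic nuclei. Each member value exceeded both comparison values of its library, and Htr2c rose against Trpc4 nuclei (log2 fold change 0.80 ± 0.06 (SE), adjusted p = 1.81e-11) and against other GABAergic nuclei (log2 fold change 0.71 ± 0.11 (SE), adjusted p = 1.46e-04). Htr4, which like Htr7 couples to the stimulatory G protein, was at 108, 96.3, 113 and 112 CPM in members and 83.6, 72.1, 74.5 and 66.6 CPM in other GABAergic nuclei. It rose against these (log2 fold change 0.60 ± 0.08 (SE), adjusted p = 3.52e-05), whereas against Trpc4 nuclei the difference was smaller than the fold limit (0.35 ± 0.06). Htr1f, coupled to the inhibitory G protein, was at 144, 218, 207 and 189.5 CPM in members and 221, 256, 285 and 306 CPM in Trpc4 nuclei, and fell against the latter (log2 fold change -0.53 ± 0.06 (SE), adjusted p = 1.91e-08). Against other GABAergic nuclei its log2 fold change was -0.12, and the adjusted p was 0.222 (edgeR).

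Htr1b, also inhibitory, fell against Trpc4 nuclei (log2 fold change -0.51 ± 0.15 (SE), adjusted p = 0.0199) with a value close to the limit of 0.5, and Htr5b fell in both comparisons from levels of at most 2.52 CPM. The level of Htr5b in members rested on 0 UMIs in both C57J libraries and 0.559 and 0.279 CPM in nude and BALB/c. Htr1a (4.10 to 7.82 CPM), Htr2a (9.10 to 20.1 CPM) and Htr2b (3.91 to 7.58 CPM) passed the test in neither comparison. Htr1d, Htr3a, Htr3b, Htr5a and Htr6 were at or under 4.19 CPM in each member library, and Htr3a had no UMI in members. In the plot of serotonin receptors, each member library of Htr4 stood above every library of both comparison classes. The same held for Htr2c apart from C57J 1, whose 484 CPM lay below the level of other GABAergic nuclei in nude.

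**Figure D2:**
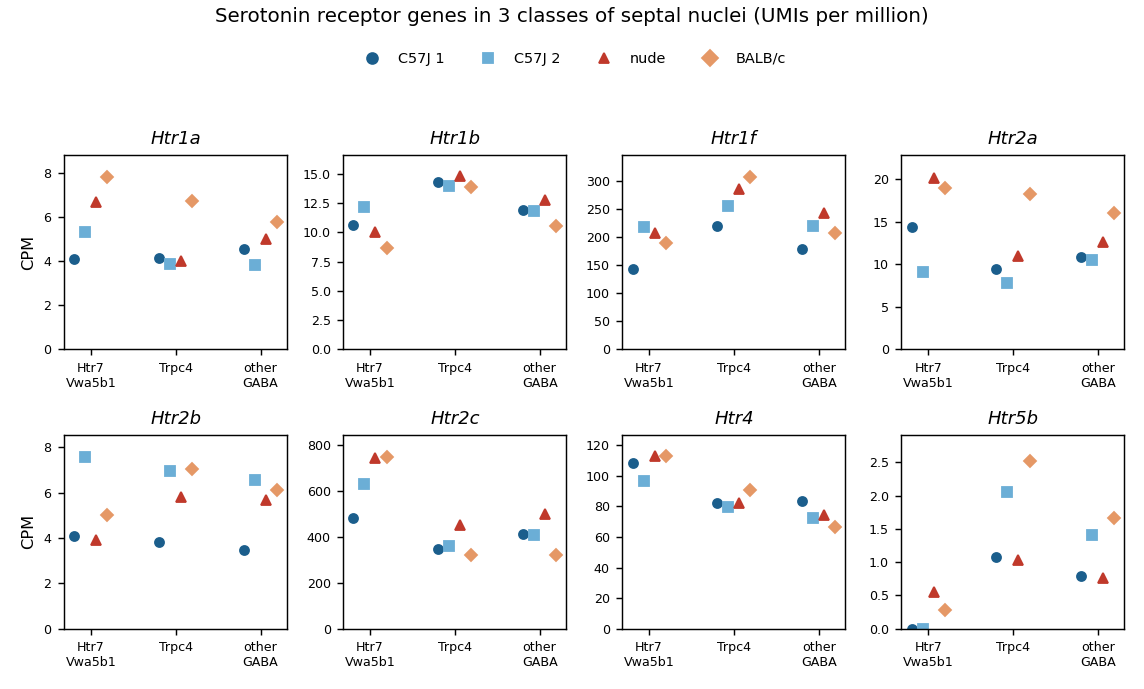
Levels (y axis, CPM) of 8 serotonin receptor genes in Htr7 Vwa5b1 nuclei, in Trpc4 GABAergic nuclei and in other GABAergic nuclei (x axis), with 1 point per library. Htr2c reaches 484 to 748 CPM in Htr7 Vwa5b1 nuclei, against 323 to 453 CPM in Trpc4 nuclei.

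The cAMP pathway downstream of 5-HT7 (adenylyl cyclases, phosphodiesterases and protein kinase A subunits) moved in both directions. Of 39 genes tested, 3 rose and 2 fell against Trpc4 nuclei, beside 3.03% and 3.6% of all genes. At an unadjusted p below 0.05 in edgeR, 14 were higher and 10 lower (61.5%, beside 26% of all genes tested). The median log2 fold change of the list was 0.02, beside -0.006 over all genes tested. Adcy7, an adenylyl cyclase, was at 8.60, 7.58, 6.71 and 12.3 CPM in members and 2.61, 3.44, 4.98 and 5.81 CPM in Trpc4 nuclei and rose against Trpc4 nuclei (log2 fold change 1.09 ± 0.21 (SE), adjusted p = 2.26e-04) and other GABAergic nuclei (0.93 ± 0.21). The phosphodiesterases Pde1c and Pde11a rose against Trpc4 nuclei (0.98 ± 0.10 and 0.87 ± 0.16) but not against other GABAergic nuclei, where their log2 fold changes were 0.21 and 0.49. Pde8a, Pde4b and Pde7b were called lower against other GABAergic nuclei. Against Trpc4 nuclei their log2 fold changes were -1.12 ± 0.19, -0.48 ± 0.04 and 0.20 ± 0.07, so Pde7b did not keep its direction. After thinning, a Pde8a UMI was found in 71.1% of oligodendrocytes, 8.46% of other GABAergic nuclei, 3.06% of Trpc4 nuclei and 1.23% of members. For Pde4b the shares were 99.4%, 65.8%, 57.6% and 50.5%. Pde7b and Adcy2, the other gene called lower against Trpc4 nuclei, were less common in oligodendrocytes (5.66% and 14.2%) than in members (16.7% and 34.9%). Whether glial RNA carried the falls of Pde8a and Pde4b was not tested.

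Genes with other roles were among the largest rises. Baiap3, a C2-domain protein of dense-core vesicle trafficking, was at 100.4, 89.5, 81.6 and 67.3 CPM in members and 36.9, 37.3, 24.7 and 17.3 CPM in Trpc4 nuclei (log2 fold change 1.60 ± 0.09 (SE), adjusted p = 5.92e-15). Zfp804b, a zinc finger gene, was at 1170.0, 1258, 1333 and 1287 CPM and 502, 581, 602 and 477 CPM, respectively (log2 fold change 1.23 ± 0.04 (SE), adjusted p = 3.95e-19). Zim1, an imprinted zinc finger gene expressed from the maternal allele, was at 42.2, 40.2, 36.9 and 46.6 CPM and 17.8, 14.8, 15.6 and 13.5 CPM (log2 fold change 1.45 ± 0.11 (SE), adjusted p = 4.78e-12). For these genes, each member library stood above every library of the comparison classes.

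Cdh23, a cadherin best known from hair cell tip links, and Esyt3, an extended synaptotagmin, rose against other GABAergic nuclei by 1.75 and 1.61 on the log2 scale and against Trpc4 nuclei by 1.49 and 1.25. Cdh23 varied between member libraries, from 9.10 CPM in C57J 2 to 33.0 CPM in nude. Gzmk, a granzyme, was at 20.5, 14.4, 34.1 and 46.9 CPM in members and 7.68, 9.46, 19.8 and 12.8 CPM in other GABAergic nuclei (log2 fold change 1.35 ± 0.17 (SE), adjusted p = 3.34e-05). Here the groups overlapped across libraries, since nude other GABAergic nuclei stood above C57J 2 members, although the member value was higher in each library. The genes Gm28905, 4930598N05Rik and A830019P07Rik, which have no assigned function here, were also among the 12 largest rises with log2 fold changes of 1.30 ± 0.10, 1.46 ± 0.11 and 1.33 ± 0.11 against other GABAergic nuclei.

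**Figure D3:**
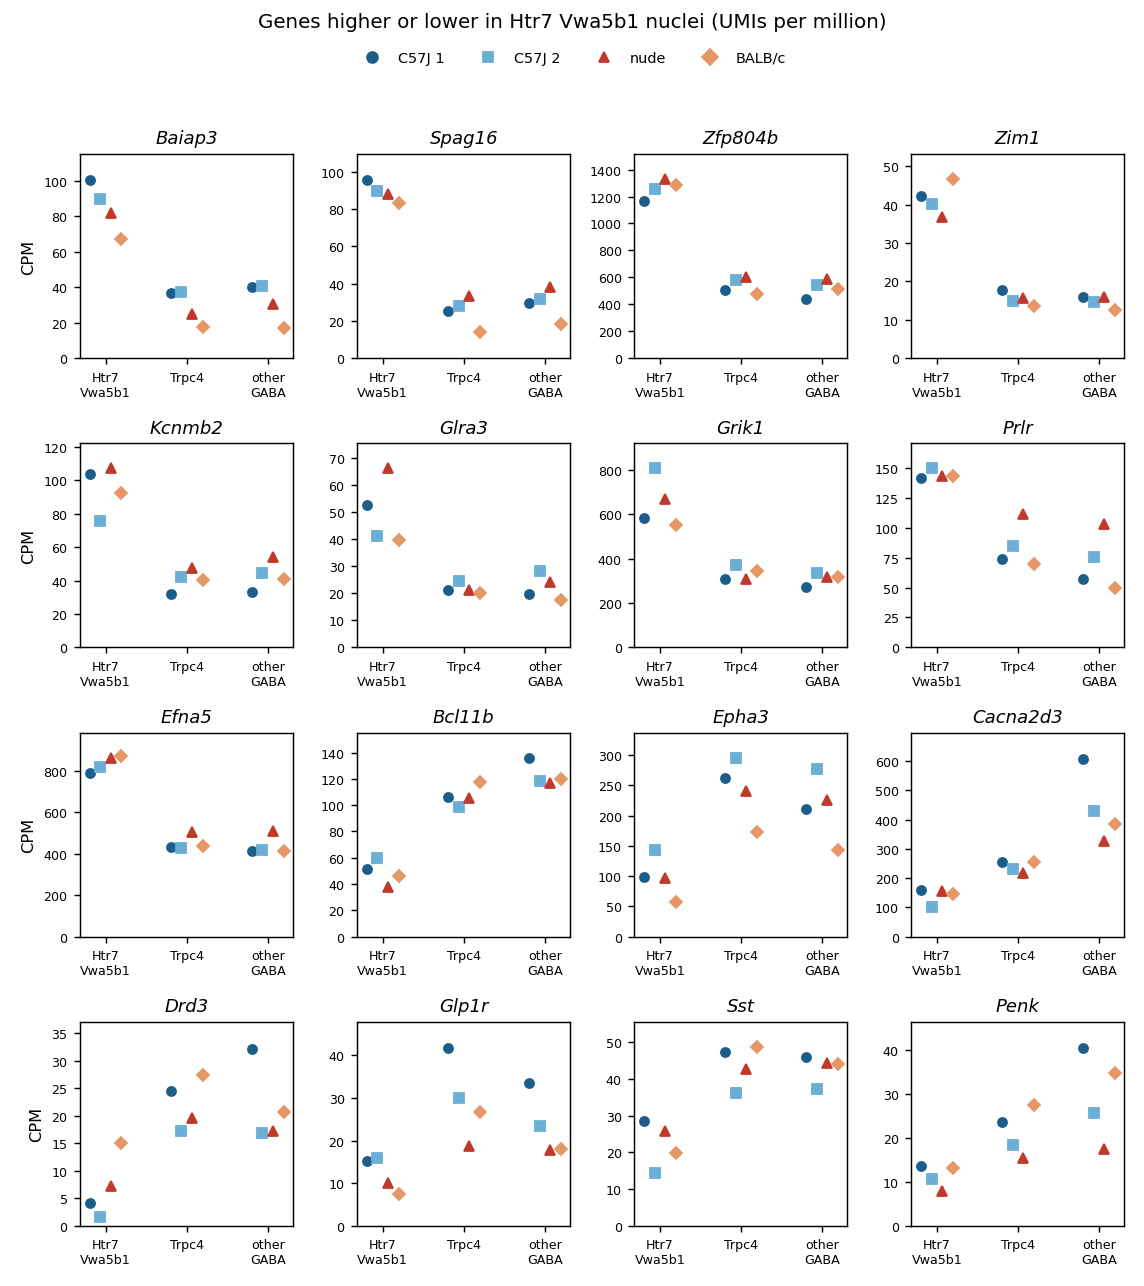
Levels (y axis, CPM) of 9 genes higher and 7 genes lower in Htr7 Vwa5b1 nuclei, beside Trpc4 and other GABAergic nuclei (x axis), with 1 point per library. Baiap3 reaches 67.3 to 100.4 CPM against 17.3 to 37.3 CPM in Trpc4 nuclei, and Epha3 56.7 to 143 CPM against 173 to 295 CPM.

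Genes of the ciliary axoneme recurred among the rises. Spag16, a component of the axonemal central pair, was at 95.4, 89.5, 88.3 and 83.5 CPM in C57J 1, C57J 2, nude and BALB/c members, 25.4, 27.7, 33.2 and 14.1 CPM in Trpc4 nuclei and 29.3, 31.6, 38.1 and 18.5 CPM in other GABAergic nuclei (log2 fold change 1.91 ± 0.11 (SE), adjusted p = 1.30e-14 against Trpc4 nuclei). Dnah5, an outer arm dynein heavy chain, was at 26.2, 23.5, 18.4 and 25.1 CPM and 5.89, 10.0, 9.62 and 6.43 CPM in members and Trpc4 nuclei (log2 fold change 1.64 ± 0.16 (SE), adjusted p = 2.10e-09). Both genes separated members from both comparison classes in all 4 libraries. A list of axonemal genes was then formed by name (dynein heavy chains, Cfap, Spag, Rsph, Drc and like genes), after these values had been seen, so it is a description. Of 76 such genes tested against other GABAergic nuclei, 32 were higher and 2 lower (3.24% and 8.99% of all genes tested), with a median log2 fold change of 0.47 beside -0.019 over all genes tested. Against Trpc4 nuclei, 24 of 73 were higher and 1 was lower (3.03% and 3.6% of all genes), with a median of 0.36 beside -0.006. Nek10, a kinase of motile cilia, was at 90.1, 126, 96.1 and 84.9 CPM in members and 50.7, 54.5, 47.3 and 37.3 CPM in Trpc4 nuclei (log2 fold change 1.05 ± 0.07 (SE), adjusted p = 5.03e-13). Dnah7a, Dnah7b and Dnah7c, inner arm dynein heavy chains, rose against Trpc4 nuclei by 1.01, 0.95 and 0.89 on the log2 scale. The 3 genes lie on chromosome 1 and are close copies, so the counts of each are uncertain. The study reported ependymal cells in its LS nuclei, and the marker lists used here held no ependymal class. Whether RNA of such cells carried the axonemal rises was not tested.

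Receptors for inhibitory transmitters rose where they were called. Of 20 GABA-A and glycine receptor genes tested, 6 rose and 0 fell against other GABAergic nuclei by edgeR and by DESeq2, and 4 rose and 0 fell against Trpc4 nuclei by both tools. Of all genes tested by edgeR, 3.24% were higher and 8.99% lower against other GABAergic nuclei, and 3.03% and 3.6% against Trpc4 nuclei. At an unadjusted p below 0.05 in edgeR, 1 was lower against other GABAergic and 3 against Trpc4 nuclei. The medians of the list were 0.36 and 0.20 on the log2 scale. Glra3, the glycine receptor alpha 3 subunit, was at 52.4, 40.9, 66.0 and 39.6 CPM in members and 21.0, 24.5, 21.2 and 20.2 CPM in Trpc4 nuclei (log2 fold change 1.19 ± 0.11 (SE), adjusted p = 3.69e-10). The groups did not overlap. Glra1 and the GABA-A subunits Gabre (epsilon) and Gabrq (theta) rose against Trpc4 nuclei by 1.77 ± 0.27, 1.68 ± 0.33 and 1.63 ± 0.27 on the log2 scale. All 3 were low, at or below 8.93 CPM in each member library, and Glra1 in C57J 2 members (2.27 CPM) was below the 3.43 CPM of the other GABAergic nuclei of that library. Gabra3 and Glra2 rose against other GABAergic nuclei (0.58 ± 0.07 and 0.54 ± 0.08) and stayed under the fold limit against Trpc4 nuclei (0.33 ± 0.05 and 0.26 ± 0.06).

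Of 24 glutamate receptor genes tested against Trpc4 nuclei, 2 rose and 1 fell, beside 3.03% and 3.6% of all genes. The 2 that rose, Grik1 and Grik2, encode kainate receptor subunits, and the other kainate receptor subunits tested were not called. Grik1 was at 585, 809, 669 and 551 CPM in C57J 1, C57J 2, nude and BALB/c members, against 308, 369, 309 and 343 CPM in Trpc4 nuclei and 269.8, 333, 315 and 315 CPM in other GABAergic nuclei (log2 fold change 0.95 ± 0.05 (SE), adjusted p = 8.89e-15 against Trpc4 nuclei). Each member library was above every comparison library. Grik2 was at 2211, 2209.8, 2181 and 1806 CPM in members and 1281, 1356, 1234 and 955 CPM in Trpc4 nuclei (log2 fold change 0.80 ± 0.04 (SE), adjusted p = 2.10e-16). Grm4, a group III metabotropic receptor, was lower at 17.6, 15.2, 25.7 and 25.7 CPM against 37.7, 37.4, 45.2 and 49.5 CPM (log2 fold change -1.005 ± 0.10 (SE), adjusted p = 3.49e-09). Grm3 and Grin2c were called lower against other GABAergic nuclei, with log2 fold changes of -1.52 and -2.28, but their changes against Trpc4 nuclei were -0.26 and -0.36 and did not pass the fold limit or the test.

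Of 42 potassium channel genes tested against Trpc4 nuclei, 3 rose and 2 fell, and of 28 calcium, sodium, HCN and TRPC channel genes 3 rose and 1 fell. Beside the 3.03% and 3.6% of all genes, the falls were near the share over all genes, and the genes are described one by one. Kcnmb2, an inactivating beta subunit of BK channels, was at 104, 75.8, 107 and 92.4 CPM in members and 32.1, 42.1, 47.6 and 40.5 CPM in Trpc4 nuclei and did not overlap between them (log2 fold change 1.25 ± 0.08 (SE), adjusted p = 7.38e-13). Kcnh3, a voltage-gated channel of the ether-a-go-go family, fell from 4.59 to 7.61 CPM in Trpc4 nuclei to 1.12 to 2.87 CPM in members (log2 fold change -1.63 ± 0.29 (SE), adjusted p = 9.30e-05). Trpc6 and Trpc7, receptor-operated channels like Trpc4, rose by 0.56 ± 0.08 and 0.95 ± 0.11 on the log2 scale, and Hcn4, a pacemaker channel, by 1.08 ± 0.28. Cacna2d3, an auxiliary calcium channel subunit, was at 160.2, 102, 154 and 146 CPM in members, 255, 231, 219 and 256 CPM in Trpc4 nuclei and 608, 429.6, 325 and 385 CPM in other GABAergic nuclei (log2 fold change -0.77 ± 0.06 (SE), adjusted p = 5.35e-11 against Trpc4 nuclei). Its 4 member libraries lay below every library of both comparison classes.

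Neuropeptide genes were lower or did not differ. Of 16 tested against other GABAergic nuclei, 0 rose and 7 fell by edgeR, with a median log2 fold change of -0.73. Of 14 tested against Trpc4 nuclei, 0 rose and 6 fell, with a median of -0.52. Of all genes tested, 8.99% were lower against other GABAergic nuclei and 3.6% against Trpc4 nuclei (3.24% and 3.03% higher). DESeq2 called 0 higher and 7 and 4 lower, and 0 were higher at an unadjusted p below 0.05 in edgeR. Sst, encoding somatostatin, was at 28.7, 14.4, 25.7 and 19.8 CPM in C57J 1, C57J 2, nude and BALB/c members and 47.5, 36.1, 42.8 and 48.8 CPM in Trpc4 nuclei (log2 fold change -1.01 ± 0.11 (SE), adjusted p = 1.29e-08). Nts, encoding neurotensin, was at 26.2, 12.9, 15.7 and 21.2 CPM and 43.3, 29.2, 34.0 and 51.1 CPM (log2 fold change -1.07 ± 0.11 (SE), adjusted p = 5.32e-09), and Penk, encoding the enkephalin precursor, at 13.5, 10.6, 7.83 and 13.1 CPM and 23.7, 18.3, 15.4 and 27.5 CPM (log2 fold change -0.95 ± 0.13 (SE), adjusted p = 2.33e-06). In Sst no member library reached a Trpc4 library. Pdyn, Npy and Cartpt fell from lower levels (-1.16 ± 0.38, -1.16 ± 0.32 and -0.73 ± 0.18 against Trpc4 nuclei), whereas Tac1 was called lower against other GABAergic nuclei alone. After thinning to 2000 UMIs, a Sst UMI was found in 4.94% of members, 8.14% of Trpc4 nuclei and 9.69% of oligodendrocytes. For Nts the shares were 3.70%, 5.80% and 5.66%, and for Penk 2.47%, 3.71% and 5.16%. For Cartpt they were 1.80%, 2.21% and 3.14%, for Pdyn 0.224%, 0.837% and 1.13%, and for Npy 0.112%, 0.809% and 1.01%. For Tac1 they were 2.69%, 2.45% and 2.14%. Whether the levels of these genes in any class came from free RNA was not tested. The falls say no more than that members held less of these transcripts.

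Receptors for peptides moved in both directions. Prlr, the prolactin receptor, was at 142, 150.1, 143 and 143 CPM in members, 74.2, 85.0, 111 and 70.1 CPM in Trpc4 nuclei and 56.99, 75.9, 103 and 49.7 CPM in other GABAergic nuclei. Its member libraries differed by less than 10 CPM and stood above every comparison library (log2 fold change 0.80 ± 0.07 (SE), adjusted p = 3.78e-10 against Trpc4 nuclei). Pth2r, the receptor for parathyroid hormone and TIP39, was at 21.7, 19.0, 24.0 and 15.9 CPM in members and 9.84, 9.41, 10.6 and 14.1 CPM in Trpc4 nuclei (log2 fold change 0.80 ± 0.16 (SE), adjusted p = 2.98e-04). Npy2r, the Y2 receptor, rose in both comparisons (1.07 ± 0.24 against Trpc4 nuclei) from 2.46 CPM in C57J 1 members to 12.6 CPM in BALB/c members. The C57J 1 value lay below both comparison values of its library, so the rise was carried by the other 3 libraries. Oprm1, the mu opioid receptor, rose against Trpc4 nuclei (0.73 ± 0.08), and its log2 fold change against other GABAergic nuclei was 0.20 ± 0.11. Glp1r, the GLP-1 receptor, was at 15.2, 15.9, 10.1 and 7.54 CPM in members and 41.8, 29.9, 18.7 and 26.7 CPM in Trpc4 nuclei (log2 fold change -1.38 ± 0.14 (SE), adjusted p = 4.68e-09).

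Receptors for dopamine, noradrenaline, histamine and acetylcholine fell where they were called, with the exception of Adra1b, which rose against Trpc4 nuclei (0.85 ± 0.28). Drd3, the dopamine D3 receptor, was at 4.10, 1.52, 7.27 and 15.1 CPM in members and 24.5, 17.2, 19.6 and 27.5 CPM in Trpc4 nuclei (log2 fold change -1.50 ± 0.19 (SE), adjusted p = 3.40e-07). Every member library was below every Trpc4 library. Adrb1, the beta 1 adrenergic receptor, was at 7.37, 4.55, 3.35 and 6.42 CPM and 15.3, 12.4, 11.5 and 17.7 CPM (log2 fold change -1.39 ± 0.18 (SE), adjusted p = 5.03e-07). Against other GABAergic nuclei 5 of 20 fell, beside 8.99% of all genes tested, and the median of the list was -0.33 on the log2 scale. Against Trpc4 nuclei 1 of 19 rose and 4 fell, beside 3.03% and 3.6% of all genes.

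Of 73 transcription factors tested against Trpc4 nuclei, 9 rose and 13 fell, beside 3.03% and 3.6% of all genes. Against other GABAergic nuclei 7 of 75 rose and 28 fell, beside 3.24% and 8.99%. Some of those that fell were common in oligodendrocytes. After thinning, Zeb2, Tcf4, Nfix and Meis1 were found in 95.1%, 80%, 34.7% and 27.7% of oligodendrocytes. In members the shares were 17.4%, 34.9%, 5.61% and 1.91%. Others, such as Rora (38.1% and 65.1%) and Bcl11a (6.67% and 18.1%), were less common in oligodendrocytes than in members. How far glial RNA carried the number of falls was not tested. Lhx8, a LIM homeobox gene of cholinergic and medial septal lineages, was at 13.5, 12.9, 24.0 and 17.9 CPM in members and 7.01, 5.76, 7.82 and 9.22 CPM in Trpc4 nuclei (log2 fold change 1.14 ± 0.15 (SE), adjusted p = 1.16e-06), while Chat and Slc5a7 of the cholinergic phenotype were lower (-1.85 ± 0.26 and -1.25 ± 0.21). Isl1, a LIM homeobox gene, was at 29.1, 38.7, 34.7 and 34.1 CPM and 24.2, 24.2, 21.4 and 18.5 CPM (log2 fold change 0.63 ± 0.11 (SE), adjusted p = 3.77e-05), and Tshz2, a zinc finger gene, at 199.9, 146, 178 and 173 CPM and 66.4, 79.7, 80.7 and 79.8 CPM (log2 fold change 1.20 ± 0.07 (SE), adjusted p = 2.55e-14). Dach1, Six3 and Onecut1 rose by 1.02 ± 0.08, 0.98 ± 0.13 and 2.68 ± 0.38 on the log2 scale against Trpc4 nuclei, Onecut1 from at most 1.03 CPM in Trpc4 nuclei to 1.64 to 7.27 CPM in members. Bcl11b, encoding CTIP2, was lower at 51.2, 59.9, 38.0 and 46.3 CPM against 106, 98.5, 105 and 118 CPM in Trpc4 nuclei (log2 fold change -1.18 ± 0.08 (SE), adjusted p = 1.30e-12), and Etv1 and Dach2 had log2 fold changes of -1.56 ± 0.14 and -1.30 ± 0.11.

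Of 44 axon guidance genes tested against Trpc4 nuclei, 7 rose and 6 fell, and of 24 cadherins 3 rose and 21 were not called, beside 3.03% of all genes higher and 3.6% lower. Efna5, an ephrin A ligand, was at 793, 820.2, 864 and 873 CPM in C57J 1, C57J 2, nude and BALB/c members and 431, 429, 504 and 436 CPM in Trpc4 nuclei (log2 fold change 0.89 ± 0.04 (SE), adjusted p = 1.76e-16). Epha3, a receptor of the ephrin A family, was at 99.1, 143, 97.3 and 56.7 CPM and 263, 295, 240.3 and 173 CPM (log2 fold change -1.36 ± 0.07 (SE), adjusted p = 2.84e-16). The ligand was thus higher and this receptor lower, and the member and Trpc4 libraries did not overlap for either. Unc5d, a netrin receptor, and Sema3c, a secreted semaphorin, rose by 0.70 ± 0.04 and 1.23 ± 0.10, whereas Sema5a had a log2 fold change of -1.24 ± 0.06. Among calcium-binding and synaptic genes, Calb1 (calbindin) was at 41.4, 56.9, 32.4 and 40.2 CPM in members and 18.6, 29.8, 25.3 and 22.1 CPM in Trpc4 nuclei (log2 fold change 0.84 ± 0.10 (SE), adjusted p = 2.05e-07), and the synaptic organizers Cbln2 and Cbln4 rose by 0.96 ± 0.27 and 1.07 ± 0.23. Syt6, a synaptotagmin, was lower (-0.92 ± 0.12).

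**Figure D4:**
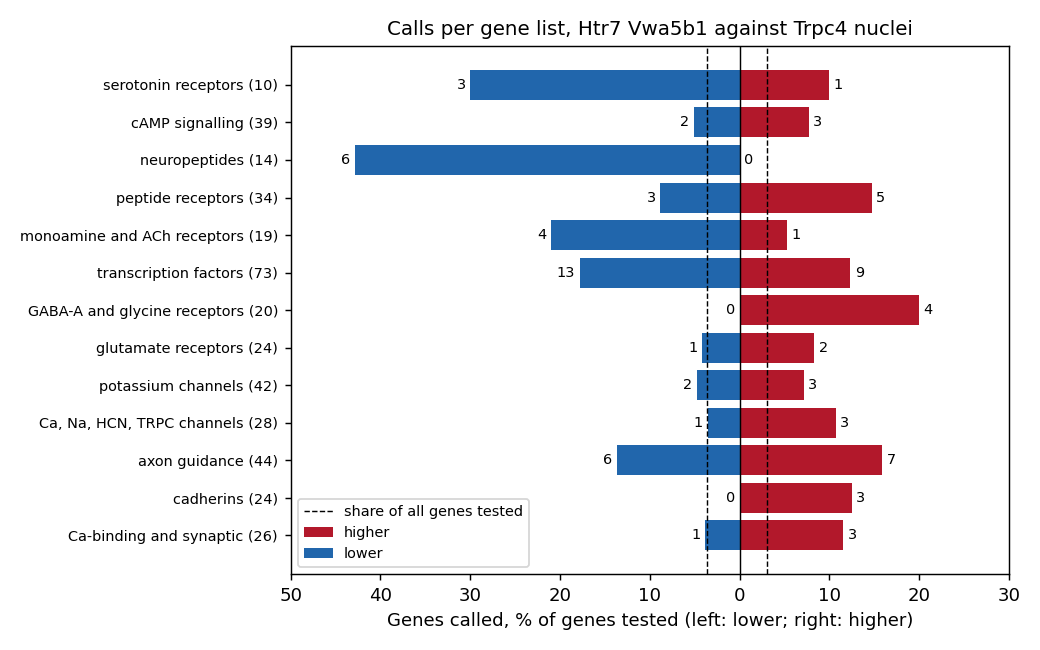
Genes called in Htr7 Vwa5b1 against Trpc4 nuclei, as a percentage of the genes tested in each of 13 lists (x axis, higher to the right and lower to the left), with the number of genes called at each bar and the number tested in parentheses. Dashed lines mark the share of all 15519 genes tested that were called, 3.03% higher and 3.6% lower; neuropeptides show 0 higher and 6 lower, and GABA-A and glycine receptors 4 higher and 0 lower.

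The study set C57J mice against the nude and BALB/c mice of altered immunity. The same contrast within the Htr7 Vwa5b1 nuclei (C57J, n = 2; BALB/c background, n = 2; edgeR) called 101 of 11643 genes tested (0.867%), of which 42 were higher (0.361%) and 59 lower (0.507%) in the BALB/c background, that is nude with BALB/c. Nude and BALB/c share the background and nude alone lacks T cells, and with 1 library each they were not tested against each other. C57J 2 shares batch 2 with both. Without C57J 1, which leaves batch 2 alone, 142 genes were called, and 24 of the 28 genes named for this contrast that were tested there kept their call and direction. Without nude, 138 genes were called, and 28 of 31 named genes kept theirs. Oligodendrocyte transcripts moved with the contrast, since Mobp and Mbp fell (-1.36 ± 0.23 and -0.73 ± 0.13) and summed oligodendrocyte markers in members ranged from 261 to 479.9 CPM. With nuclei poor in glial transcripts 86 genes were called, and 26 of 30 named genes kept their call and direction. Fewer named genes kept theirs in other settings: 12 of 31 by DESeq2, 2 of 16 after thinning, 15 of 26 without predicted doublets and 8 of 20 with at least 3 Htr7 UMIs. Among nuclei of at least 4000 UMIs 27 of 29 did, and with batch as covariate 27 of 31. The number of calls was 36 by DESeq2, 6 after thinning to 2000 UMIs, 98 among nuclei of at least 4000 UMIs and 253 without C57J 2.

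Genes that were near 0 in one background made up the largest differences. Cldn34c1, a claudin-like gene on chromosome X, was at 31.5, 23.5, 0 and 0 CPM in C57J 1, C57J 2, nude and BALB/c members. With 108 UMIs in C57J members and none in the others, it was at least 51.4-fold higher in C57J (3 UMIs over the group taken as the floor). Banf2, Gm17167 and Gm35256 were at least 20-fold, 20-fold and 20.9-fold higher in C57J members, A730017L22Rik at least 16.2-fold and Gm49980 at least 9.05-fold, each with no UMI in nude and BALB/c members. Rec8, encoding a meiotic cohesin subunit, was at 11.9, 14.4, 0 and 0.279 CPM, and Gm9989 at 6.14, 10.6, 0 and 0.279 CPM. In the other direction, Gm12160 and Gm36684 had no UMI in C57J members and were at least 10.7-fold and 7.47-fold higher in the BALB/c background. Tpm3-rs7, a tropomyosin-related sequence, was at 1.23, 0.758, 12.3 and 10.6 CPM (log2 fold change 3.34 ± 0.56 (SE), adjusted p = 0.00741), and Gm10503, Gm13110, Gm49692, 4930520O04Rik and Lvrn were also called higher, by 2.94 to 3.69 on the log2 scale. Of the 101 genes, 26 carried provisional gene model names. All 16 genes of this paragraph were also called in the same direction between backgrounds in Trpc4 nuclei, with Cldn34c1 at 15.4, 16.0, 0.172 and 0.0765 CPM and Gm12160 at 0, 0, 10.3 and 7.46 CPM.

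Axonemal genes were again among the named differences, all higher in the BALB/c background (chosen after their values were seen). Dnah7a was at 11.1, 12.1, 84.4 and 67.3 CPM in C57J 1, C57J 2, nude and BALB/c members (log2 fold change 2.70 ± 0.23 (SE), adjusted p = 1.03e-05), Dnah6 at 6.96, 8.34, 32.4 and 33.5 CPM (log2 fold change 2.13 ± 0.28 (SE), adjusted p = 6.41e-04) and Cfap54 at 84.8, 105, 245 and 301 CPM (log2 fold change 1.55 ± 0.14 (SE), adjusted p = 1.73e-05). Cfap46 and Cfap61 rose by 1.00 ± 0.19 and 1.18 ± 0.26. Of 49 axonemal genes tested, 5 were higher and 0 lower by edgeR, 3 were higher and 0 lower by DESeq2, and 4 were lower at an unadjusted p below 0.05. Of all genes tested, 0.361% were called higher. Dnah7a in Trpc4 nuclei was at 7.61, 7.81, 40.3 and 29.9 CPM (2.20 ± 0.18), so the difference between backgrounds was of like size there.

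Few genes of the lists differed between backgrounds in these nuclei. No serotonin receptor, cAMP pathway gene, neuropeptide, peptide receptor, monoamine or acetylcholine receptor, inhibitory receptor, ion channel or cadherin gene was called by edgeR or by DESeq2. Of the 197 such genes tested, 17 were higher and 16 lower at an unadjusted p below 0.05 in edgeR (16.8%, beside 9.47% of all genes tested). The log2 fold change was 0.43 ± 0.12 for Htr2c (adjusted p = 0.139) and 1.90 ± 0.51 for Drd3 (adjusted p = 0.12). Sema3a, a secreted semaphorin, was at 23.3, 20.5, 47.0 and 46.3 CPM (log2 fold change 1.07 ± 0.21 (SE), adjusted p = 0.0187) and Ntng1, encoding netrin-G1, at 224, 243, 378 and 308 CPM (log2 fold change 0.55 ± 0.12 (SE), adjusted p = 0.0484). Tshz3, a zinc finger transcription factor, was at 14.7, 9.85, 25.2 and 42.7 CPM (log2 fold change 1.45 ± 0.29 (SE), adjusted p = 0.0262), and Zeb2 at 142, 174, 104 and 102 CPM (log2 fold change -0.61 ± 0.14 (SE), adjusted p = 0.0469). After thinning, a Zeb2 UMI was found in 95.1% of oligodendrocytes and 17.4% of members. Whether glial RNA carried the fall of Zeb2 was not tested. Ndn, an imprinted gene of the Prader-Willi region encoding necdin, was at 32.8, 26.5, 48.1 and 84.6 CPM (log2 fold change 1.18 ± 0.24 (SE), adjusted p = 0.0267), and in Trpc4 nuclei it was at 33.7, 22.3, 47.4 and 65.5 CPM. Gzmk was higher in the BALB/c background as well (log2 fold change 1.19 ± 0.24 (SE), adjusted p = 0.0275). The libraries of the 2 backgrounds did not overlap for any of these called genes, as they did not for 38.3% of all genes tested.

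**Figure D5:**
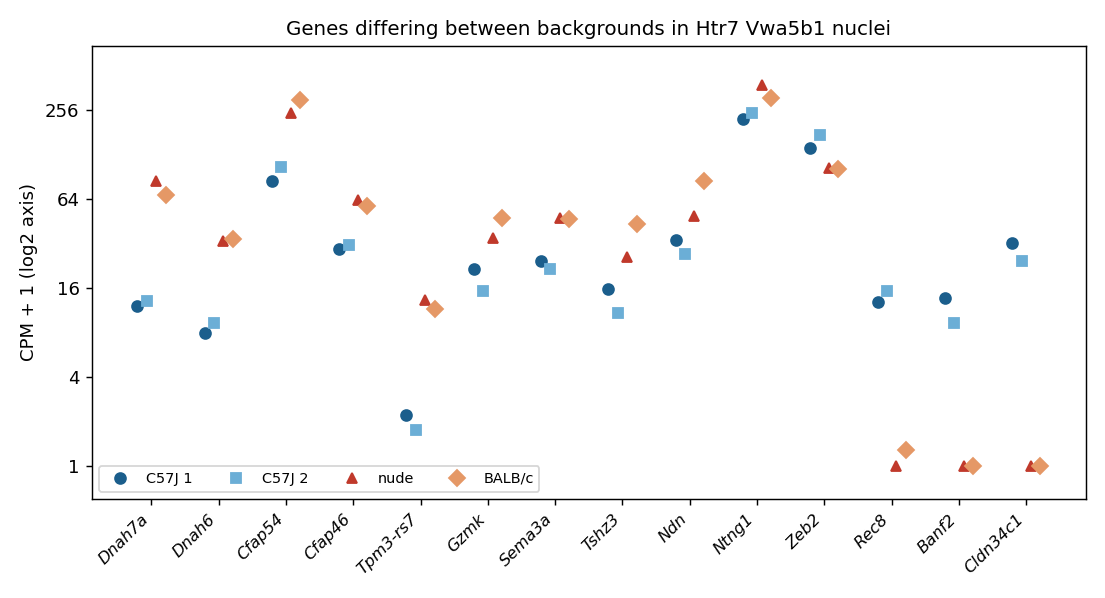
Levels of 14 genes called between backgrounds in Htr7 Vwa5b1 nuclei (y axis, CPM + 1 on a log2 axis) in each library, with 1 point per library of 3 pooled mice. Dnah7a stands at 11.1 and 12.1 CPM in the C57J libraries and at 84.4 and 67.3 CPM in nude and BALB/c, and Cldn34c1 at 31.5 and 23.5 CPM against 0 CPM.

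Whether the background effect in Htr7 Vwa5b1 nuclei differed from that in other GABAergic nuclei was tested as an interaction (edgeR, 4 libraries, both classes). Of 17858 genes tested, 46 were called (0.258%), 6 with a more positive (0.0336%) and 40 with a more negative effect (0.224%) in Htr7 Vwa5b1 nuclei. Sema3a rose in members and was at 42.1, 56.6, 41.3 and 37.4 CPM in other GABAergic nuclei (log2 fold change 1.35 ± 0.22 (SE), adjusted p = 9.83e-05 for the difference). In Trpc4 nuclei it was at 38.9, 44.7, 38.3 and 41.4 CPM. Foxp2, a forkhead transcription factor, was at 208, 205, 224 and 230.3 CPM in C57J 1, C57J 2, nude and BALB/c members and 418, 252, 197 and 189 CPM in other GABAergic nuclei (log2 fold change 0.91 ± 0.15 (SE), adjusted p = 1.60e-04). Its level in members was similar across libraries, while the comparison class was highest in C57J 1. The negative differences included the oligodendrocyte genes Mobp and Mog and the astrocyte genes Slc1a2 and Slc1a3, and glial content differed between the libraries of the comparison class as given above. With nuclei poor in glial transcripts, and the limit of 3 Gad UMIs on comparison nuclei, 7 genes were called, among them Sema3a, Foxp2, Drd3 and Gpr139. DESeq2 called 0 genes (166 at an unadjusted p below 0.05, beside 907 by edgeR), with log2 fold changes of 1.36 for Sema3a and 0.89 for Foxp2 that were close to those of edgeR. Within edgeR the calls were 0 after thinning, 1 without predicted doublets and 8 among nuclei of at least 4000 UMIs.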

How the data were processed

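Single-nucleus RNA sequencing (10x Genomics 3' chemistry) was performed on 4 LS libraries of 3 pooled mice. According to the submitters' processing notes and the methods of the study, the authors used Cell Ranger 7.0.1 with the mm10 reference. The deposited values are raw UMI counts, not normalized. Whether introns were counted is not given in the sources used here. The 58372 deposited barcodes held 72912922 to 125998527 UMIs per library.

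Nuclei were selected by the limits given above. GABAergic nuclei had at least 1 Gad1 or Gad2 UMI and under 2 Slc17a6 UMIs, and oligodendrocytes at least 2 Mog UMIs without Gad1, Gad2 or Slc17a6. Free RNA can place a nucleus among GABAergic nuclei. UMIs were summed per library and class and tested with edgeR 4.0.16 in R 4.3.3 (filterByExpr, TMM, quasi-likelihood F test). The rule genes, and Trpc4 where it chose the nuclei, were left out of the tests. CPM values are UMIs scaled to 1000000 per sum without TMM, and fold changes include TMM. Member and comparison sums of 1 library were blocked by library. A fold change is given as log2 with its standard error. Doublets were predicted per library with Scrublet in scanpy 1.11.5 and marked at 0.8% per 1000 nuclei, a rate that was assumed. Scripts were tested on simulated data with 200 changed genes, drawn only from genes of higher counts. For the contrast of backgrounds, 69% of genes changed by a log2 fold change of 1 were recovered and 95% of those changed by 2. There were 15 false calls among 11564 genes tested. Recovery of genes with low counts was not examined. Gene positions come from GENCODE vM21, matched by identifier.

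Named against other GABAergic nuclei were the 12 largest rises and 8 largest falls among called genes that moved the same way in all 4 libraries and reached 20 CPM. Named between backgrounds were the 8 largest in each direction that did not overlap and reached 5 CPM. The rule genes, serotonin receptors, markers and up to 4 called genes per list of 14 lists were also named. Named after their values were seen were the axonemal genes other than Spag16 and Dnah5, Isl1, Tshz2, Dach1, Six3, Onecut1, Bcl11b, Etv1, Dach2, Sst, Nts, Cartpt, Npy2r, Oprm1, Adra1b, Efna5, Unc5d, Sema3c, Sema5a, Sema3a, Ntng1, Calb1, Trpc7, Grik2, Gabra3, Glra2, Pde1c, Pde11a, Tshz3, Zeb2, Ndn, Foxp2 and Gpr139. The nuclei and lists were chosen with earlier results of these data known. Alternatives were DESeq2 1.42.0, no filter, nuclei of at least 4000 UMIs, thinning, doublets removed, a limit of 3 Htr7 UMIs, no TMM, batch as covariate and each library left out. The cause of a difference was not tested. Some genes that these rules name are not reported here.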

Additional observations from a re-analysis of the deposited data

Results flagged for a closer look

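The effect of the BALB/c background differed between Htr7 Vwa5b1 nuclei and other GABAergic nuclei for the following genes named above, by the interaction test of edgeR, with no explanation weighed. The difference of log2 fold changes was positive for Drd3 (2.39), Sema3a (1.35), Syt6 (1.17), Foxp2 (0.91), Cacna2d3 (0.73) and Ntng1 (0.58). Drd3 was at 4.10, 1.52, 7.27 and 15.1 CPM in C57J 1, C57J 2, nude and BALB/c members and 32.1, 16.9, 17.1 and 20.6 CPM in other GABAergic nuclei, and its level in members rested on few UMIs. Ntng1 was at 239.6, 284, 297 and 219 CPM in other GABAergic nuclei. Cacna2d3 was at 608, 429.6, 325 and 385 CPM in that class and 160.2, 102, 154 and 146 CPM in members. Syt6 was at 62.4, 36.6, 40.2 and 43.2 CPM in that class and 15.6, 11.4, 20.1 and 28.8 CPM in members. With nuclei poor in glial transcripts, Cacna2d3, Syt6 and Ntng1 were not called (0.58, 0.96 and 0.46, adjusted p = 0.208, 0.286 and 0.108, edgeR). Drd3, Sema3a and Foxp2 were called in that setting. The difference was negative for Gpr139 (-2.12), an orphan G protein-coupled receptor. Gpr139 was at 9.83, 7.58, 5.03 and 3.35 CPM in members and 4.45, 5.22, 10.9 and 8.00 CPM in other GABAergic nuclei. Zeb2 (-0.89) was also negative. After thinning to 2000 UMIs a Zeb2 UMI was found in 95.1% of oligodendrocytes and 17.4% of members, and with nuclei poor in glial transcripts its difference was -0.39 (adjusted p = 0.837, edgeR). The difference of log2 fold changes was also negative for the glial genes Mog (-1.96), Prr5l (-1.88), Mobp (-1.75), Slc1a3 (-0.92) and Slc1a2 (-0.78), with Mobp at 152, 96.7, 63.6 and 244 CPM in other GABAergic nuclei. DESeq2 called 0 of 17858 genes in this test (166 at an unadjusted p below 0.05, beside 907 by edgeR), and the calls were 8 among nuclei of at least 4000 UMIs.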

How the results depend on the processing

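The 101 genes called between backgrounds became 36 with DESeq2, 231 without a filter on low counts, 6 after thinning to 2000 UMIs, 44 without predicted doublets, 37 with at least 3 Htr7 UMIs and 154 with batch as covariate, and 76 (without BALB/c) to 253 (without C57J 2) when a library was left out. Leaving a library out leaves 1 background with a single library, which is assumed to vary like the pair in the other. The 2056 calls against other GABAergic nuclei became 1071 among nuclei of at least 4000 UMIs and 938 with nuclei poor in glial transcripts, and 1423 to 2101 with a library left out. The 1029 calls against Trpc4 nuclei became 672 with DESeq2 and 525 after thinning, and 757 to 1032 with a library left out. The 46 interaction calls became 0 with DESeq2 (166 genes at an unadjusted p below 0.05) and 0 with edgeR after thinning (496 at an unadjusted p below 0.05, against 907 without thinning), 8 at 4000 UMIs, 1 without doublets and 7 with nuclei poor in glial transcripts, and 11 (without C57J 1) to 300 (without nude) with a library left out; they were 14 without C57J 2 and 20 without BALB/c. The cause of these changes was not tested, but several settings leave fewer UMIs. The log2 ratio of shares kept its sign, from 0.13 without BALB/c to 0.50 without nude, but libraries of the backgrounds overlapped in several settings.

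With nuclei poor in glial transcripts, the log2 fold changes against other GABAergic nuclei were 0.24 for 4930420G21Rik, 0.0013 for Daam2, 0.13 for Aspa, 0.087 for Mag, 0.032 for Mbp, 0.14 for Slc1a3 and 0.38 for Grin2c. Against Trpc4 nuclei they were 0.34 for 4930420G21Rik, 0.081 for Prr5l, 0.064 for Daam2, 0.25 for Aspa, 0.053 for Mog, 0.21 for Mag, 0.00996 for Pdgfra and 0.26 for Tcf7l2. With the limits on Calcr, Esr1 and St18 also set on Trpc4 nuclei, they were 0.19 for 4930420G21Rik, 0.065 for Prr5l and 0.14 for Mag. The interaction of Prr5l ranged from -3.35 without nude to 0.49 without BALB/c. The limits on glial transcripts and on Gad1 with Gad2, Calcr, Esr1 and St18 in comparison nuclei were chosen after the data were seen. The setting poor in glial transcripts included the limit of 3 Gad UMIs on comparison nuclei. No paired analysis was possible because the nude and BALB/c labels carry no replicate number that C57J shares, while comparisons between classes were already blocked by library.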
